A study of Mus musculus with 26 samples.

Results

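The genes described here are 52 interferon-stimulated and antigen presentation genes, taken by their symbols from a table of 55487 mouse genes, and all 52 passed the filter on low counts in every comparison. They fall into 4 branches: 22 genes stimulated by type I interferon, 13 genes induced by interferon-gamma, 7 genes of MHC class II presentation and 10 genes of MHC class I presentation. The choice of genes did not use their values in these libraries, but it was made with earlier results of the same data known.

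RNA came from homogenized proximal small intestine of tamIEC-KO mice (labelled tg), which carry 1 loxP-flanked gene on both alleles (fl/fl) and Villin-creERT2, and of control mice (labelled wt), which are fl/fl littermates without the Cre transgene. Mice of both genotypes, given in the study as 8 to 12 weeks old, received tamoxifen on 5 consecutive days and were sampled 3 or 7 days after the last injection: 7 knockout and 7 control mice at day 3, and 6 knockout and 6 control mice at day 7. The Villin promoter drives the tamoxifen-activated Cre in intestinal epithelial cells, whereas the tissue piece also holds lamina propria, lymphoid tissue, vessels and muscle, so a lower level of an RNA in the piece can come from fewer cells of a type or from less RNA per cell, and these cannot be told apart.

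Interferons are cytokines of antiviral defence. Type I interferons signal through the receptor chains Ifnar1 and Ifnar2 to a complex of Stat2, Irf9 and a partner STAT protein that binds the interferon-stimulated response element (ISRE), and interferon-gamma signals through Ifngr1 and Ifngr2 to STAT dimers that bind the gamma-activated site (GAS). Class I molecules, made of a heavy chain and B2m, show peptides cut by the immunoproteasome and carried by Tap1 and Tap2, and class II molecules show peptides loaded with the help of the invariant chain Cd74 and H2-DM. In the small intestine both kinds of molecule are carried by epithelial cells as well as by immune cells.

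The libraries were prepared with a 3′ end mRNA method and held 3720168 to 6338016 counted reads each, and levels are given as CPM, a gene's reads scaled to the same total in every library. The tests and the mean log2 levels also scale each library by a further factor (TMM), which the CPM values of single genes do not. 4 libraries (tg.3d replicate 1, wt.3d replicates 5 and 7, wt.7d replicate 2) held over 1000 CPM of stomach epithelial markers, and pancreatic acinar markers reached 23640.5 CPM in the day 3 knockouts, 14417 in the day 3 controls, 12706 in the day 7 knockouts and 3186 in the day 7 controls. The count of called genes at day 3 is therefore also given without the 4 libraries with stomach markers. Epithelial markers such as Epcam and Vil1, leukocyte markers and enterocyte markers were detected in every group. No 2 libraries of a group held identical values.

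On day 3, 3 of the 52 genes were higher in the knockout mice and 0 were lower at an adjusted p under 0.05 (edgeR quasi-likelihood test, adjusted over all 20760 genes tested), beside 1.11% of all genes higher and 0.323% lower. On day 7, 5 of the 52 were higher and 22 were lower, beside 19.7% of the 20259 genes tested higher and 18.8% lower. By branch at day 7, type I genes had 4 higher and 3 lower, interferon-gamma genes 1 higher and 7 lower, class II genes 0 higher and 4 lower, and class I genes 0 higher and 8 lower. The median log2 fold change of knockout over control at day 7 was -0.19 in the type I branch, -0.64 in the interferon-gamma branch, -0.63 in class II and -1.18 in class I, against -0.02 over all genes tested. At day 3 the same medians were 0.36, -0.26, -0.37 and -0.11, against -0.03. An unadjusted p under 0.05 was found at day 3 for 15 of the 52 members and for 2832 of the 20760 genes tested. At day 7 it was found for 30 of the 52 and for 9277 of the 20259 genes tested.

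The 3 genes called at day 3 were Rsad2, Oasl2 and Apol9a, all in the type I branch. Without the 4 libraries with stomach markers, an alternative chosen after seeing the data, 5 members were called, with Isg15, Ifit1 and Tapbp added and Oasl2 lost. The 8 general leukocyte markers all had a negative log2 fold change at day 3, although edgeR called none and DESeq2 called 1 of them, Arhgdib (2 had an unadjusted p under 0.05 in edgeR, median log2 fold change -0.52), and their sum was 245 to 452 CPM in controls and 148 to 406 CPM in knockouts. With the mean of these markers as a covariate, 0 members were called at day 3 in edgeR. The log2 fold changes in that fit were 0.74 for Oasl2 (adjusted p = 0.171), 0.66 for Rsad2 (adjusted p = 0.228) and 1.73 for Apol9a (adjusted p = 0.453), beside 0.67, 0.82 and 2.73 without the covariate.

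**Figure D1:**
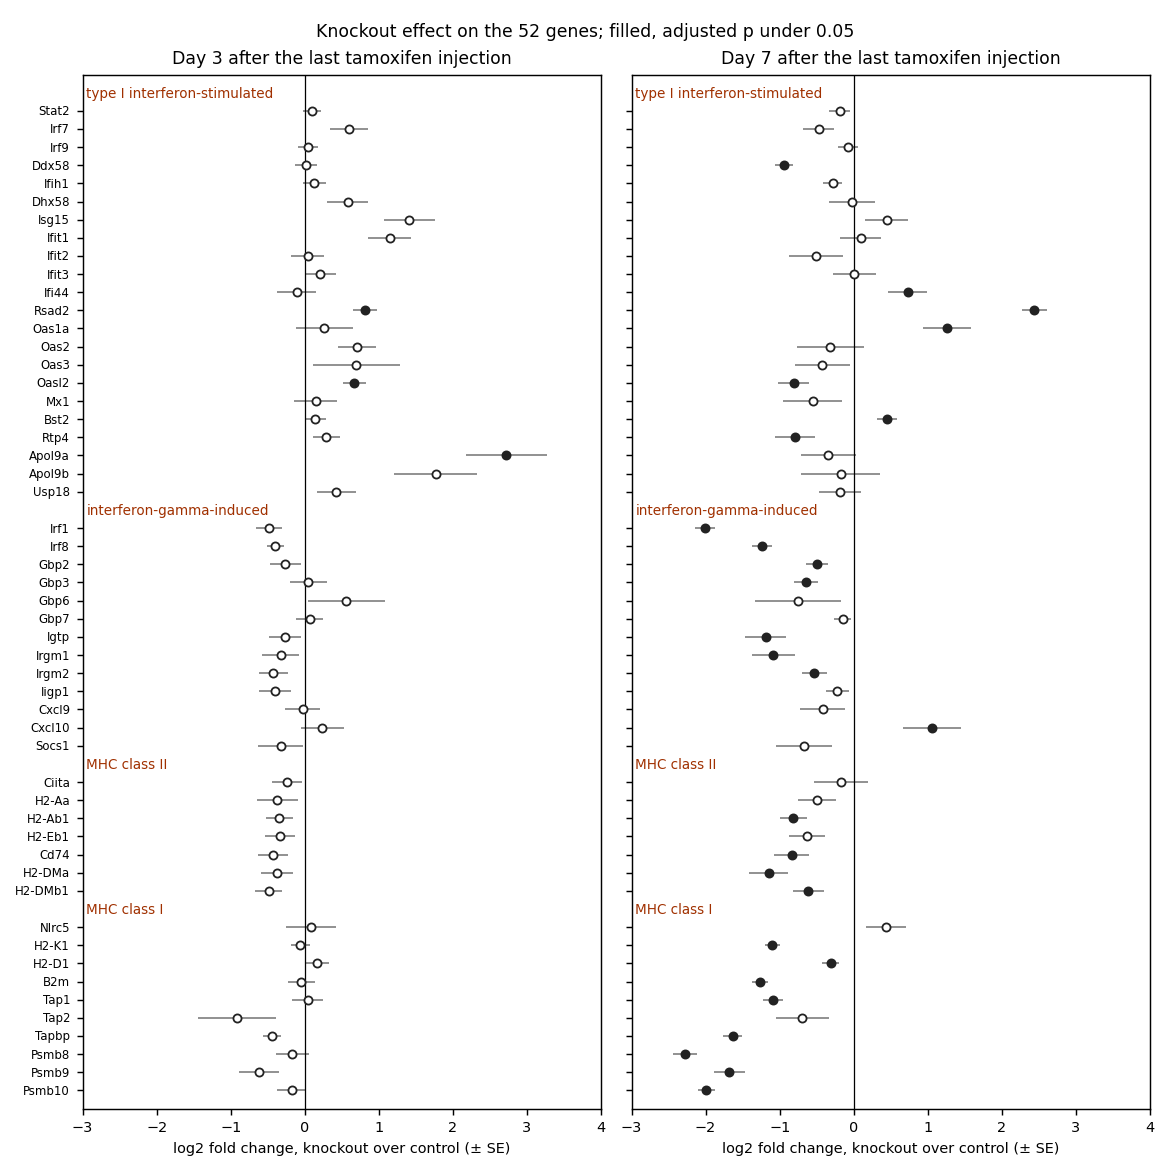
Log2 fold change of knockout over control with its standard error (x axis) for each of the 52 genes (y axis), grouped by branch, at day 3 (left) and day 7 (right), with filled points for an adjusted p under 0.05. Rsad2 lies to the right of 0 on both days, and 8 of the 10 class I genes are filled to the left of 0 at day 7 only.

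Promoter sequence was read for the 40 members that have an entry in the RefSeq promoter table (GRCm38.p6, 250 bases before to 50 bases after the start). The stretches shown are the 150 bases before the start of 6 genes chosen to show each motif and branch: a type I target raised on both days (Rsad2), a type I target that differed widely between mice (Isg15), the transcription factor Irf1, an immunoproteasome subunit (Psmb8), the class I light chain (B2m) and H2-Eb1, a class II chain that was called on neither day as tested here and is shown as the one member with an X box core. They are printed 5′ to 3′ on the gene's own strand, with the ISRE core (GAAANNGAA), the GAS (TTCNNNGAA) and the class II X box core (AGCAACNG) in capitals, each searched on both strands.
Isg15 (chr4:156200819-156200968, minus strand): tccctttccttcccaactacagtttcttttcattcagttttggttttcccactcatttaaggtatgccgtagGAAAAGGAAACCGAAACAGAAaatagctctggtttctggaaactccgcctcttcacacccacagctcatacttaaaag
Rsad2 (chr12:26456453-26456602, minus strand): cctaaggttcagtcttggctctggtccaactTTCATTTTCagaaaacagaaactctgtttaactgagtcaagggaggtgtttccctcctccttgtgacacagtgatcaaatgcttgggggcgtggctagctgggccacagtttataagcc
Irf1 (chr11:53769864-53770013, plus strand): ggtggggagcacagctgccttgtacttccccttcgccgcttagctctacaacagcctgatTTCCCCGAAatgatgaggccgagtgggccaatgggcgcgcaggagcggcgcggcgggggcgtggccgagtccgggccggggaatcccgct
Psmb8 (chr17:34198045-34198194, plus strand): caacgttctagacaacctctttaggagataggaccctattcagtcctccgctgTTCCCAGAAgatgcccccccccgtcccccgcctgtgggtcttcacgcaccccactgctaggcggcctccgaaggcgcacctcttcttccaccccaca
B2m (chr2:122147537-122147686, plus strand): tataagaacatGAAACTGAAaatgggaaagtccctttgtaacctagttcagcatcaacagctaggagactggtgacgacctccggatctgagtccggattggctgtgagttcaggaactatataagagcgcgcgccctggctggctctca
H2-Eb1 (chr17:34305717-34305866, plus strand): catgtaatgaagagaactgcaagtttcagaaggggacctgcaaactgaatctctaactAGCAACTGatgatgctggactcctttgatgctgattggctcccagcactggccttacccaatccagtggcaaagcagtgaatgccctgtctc

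The capitals in Isg15 are 3 ISRE cores that overlap each other, Rsad2 and B2m hold 1 ISRE core each, Irf1 and Psmb8 hold 1 GAS each, and H2-Eb1 holds the X box core, 92 bases before its start. Over the whole 300 base windows, the ISRE core was present in 13 of 17 type I genes and 9 of 11 interferon-gamma genes with a promoter entry, in 1 of 8 class I genes and in 0 of 4 class II genes, beside 9.76% of all 27025 genes with an entry. The GAS was present in 3 of 17, 5 of 11, 1 of 8 and 0 of 4 in the same order, beside 9.55% of all genes, and the X box core in 1 member beside 5.82%. An ISRE core and a GAS shared bases in 1 of the 49 windows, that of Bst2. Of the 23 members with an ISRE core, 5 were higher and 7 lower in the knockout at day 7, and of the 17 members without one, 0 were higher and 12 lower, beside 19.7% higher and 18.8% lower over all genes tested, so the share of raised genes among members with the core was near that of all genes. Rsad2, Oas1a, Ifi44, Bst2 and Cxcl10, which rose, held the core, as did Ddx58 and Gbp2, which fell. A match of letters is a description of the window and was not tested as a binding site. A variant that differs in a fixed letter is not counted, so a window without a match can still hold an element.

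Stat2 and Irf9 are parts of the factor that carries type I signals to the nucleus, and neither passed the test at day 7. Stat2 was at 23.5 to 36.7 CPM (median 26.4) in the day 7 controls and 17.4 to 30.1 CPM (median 23.2) in the day 7 knockouts, and Irf9 at 48.8 to 62.5 CPM (median 57.5) and 37.4 to 64.8 CPM (median 53.5). The groups overlapped for both, and the log2 fold changes were -0.19 ± 0.14 (SE, adjusted p = 0.307) and -0.08 ± 0.13 (SE, adjusted p = 0.703).

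Irf7, the factor that amplifies type I interferon production, was at 9.69 to 17.3 CPM (median 13) in the controls and 7.57 to 37.8 CPM (median 16.7) in the knockouts at day 3. At day 7 it was at 21.6 to 42.5 CPM (median 27.8) and 12.1 to 33.1 CPM (median 19.8). The difference was 0.60 ± 0.26 (SE, adjusted p = 0.305) at day 3 and -0.47 ± 0.21 (SE, adjusted p = 0.0883) at day 7, so neither passed the test, and the groups overlapped on both days.

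Among the cytoplasmic RNA sensors, Ddx58 (RIG-I) was the one that fell. It ranged over 25.8 to 64 CPM (median 56.8) in the day 3 controls and 43.8 to 53.3 CPM (median 48.3) in the day 3 knockouts, a log2 fold change of 0.02 ± 0.15 (SE, adjusted p = 0.973). At day 7 every control (from 57.3 to 67 CPM) lay above every knockout (from 24.4 to 38.7 CPM), a change of -0.95 ± 0.12 (SE, adjusted p = 5.17e-06). The sensor Ifih1 (MDA5) did not pass the test at day 7 (-0.29, adjusted p = 0.0917), nor did Dhx58 (-0.02, adjusted p = 0.974).

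Rsad2, which encodes viperin, an antiviral enzyme that makes a chain-terminating nucleotide, was the one member of the 52 whose groups did not overlap on either day. At day 3 it was at 9.55 to 15.9 CPM (median 13.4) in the controls and at 17.1 to 29.3 CPM (median 19.8) in the knockouts. At day 7 it was at 12.5 to 18.5 CPM (median 15.2) in the controls, whereas the 6 knockouts were at 113, 76.7, 52.1, 68.6, 79.8 and 96.1 CPM. The lowest knockout was thus above the highest control on each day, as it was for 0.356% of all genes tested at day 3 and 11% at day 7. The log2 fold change was 0.82 ± 0.16 (SE, adjusted p = 0.0156) at day 3 and 2.44 ± 0.17 (SE, adjusted p = 1.42e-09) at day 7, or 1.76-fold and 5.43-fold, and the effect at day 7 exceeded that at day 3 by 1.65 ± 0.24 (SE, adjusted p = 1.11e-05). The day 7 call held without each single library and under every alternative setting run. The day 3 call was lost with a 2-fold minimum, with a replicate block and with the leukocyte covariate.

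Isg15, a ubiquitin-like modifier, was at 6.97 to 20.2 CPM (median 12.7) in the day 3 controls. Its day 3 knockouts spread from 7.78 CPM in replicate 1 to 68.3 CPM in replicate 3, with 6 of the 7 above every control. The day 3 difference was 1.41 ± 0.35 (SE, adjusted p = 0.0527), short of the threshold as tested here. It passed in DESeq2, without tg.3d replicate 1, without the 4 libraries with stomach markers, and in edgeR with filterByExpr, with no filter on low counts, or with all libraries in 1 fit.

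Ifit1, which binds RNA that lacks the cap modification of the host, was at 4.57 to 13.3 CPM (median 7.4) and 8.62 to 28 CPM (median 20.2) at day 3, a difference of 1.15 ± 0.28 (SE, adjusted p = 0.0568). Its difference passed in DESeq2 and in edgeR with filterByExpr, with all libraries in 1 fit or with a replicate block. It also passed without tg.3d replicate 1 or 5 and without the 4 libraries with stomach markers. At day 7 Isg15 was at 18.3 to 42.8 CPM (median 24.2) in controls and 20.4 to 66.1 CPM (median 39.5) in knockouts. Ifit1 was at 15.8 to 38.3 CPM (median 20.5) and 9.67 to 38 CPM (median 24.3). Neither gene passed the test at day 7 (0.44 ± 0.29 SE, adjusted p = 0.25 and 0.09 ± 0.28 SE, adjusted p = 0.833), and the groups overlapped.

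Oasl2, a member of the oligoadenylate synthetase family, changed in opposite directions on the 2 days. It was at 18.8 to 29.6 CPM (median 22.9) in controls and 24.6 to 55.7 CPM (median 32) in knockouts at day 3, a log2 fold change of 0.67 ± 0.16 (SE, adjusted p = 0.0422). At day 7 it was at 28 to 48.3 CPM (median 36.4) and 12.2 to 33.1 CPM (median 20.3), a log2 fold change of -0.81 ± 0.21 (SE, adjusted p = 0.00389). The groups overlapped on both days, and the effects differed by -1.46 ± 0.27 (SE, adjusted p = 0.000322) between days. The day 3 call was lost when any 1 of 11 of the 14 libraries was left out, that is all but tg.3d replicates 1 and 2 and wt.3d replicate 2. The adjusted p without the 4 libraries with stomach markers was 0.0644.

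Apol9a, an apolipoprotein L family gene, was near the limit of detection in the day 3 controls, at 0.269 to 1.25 CPM (median 0.796), which is 1 to 6 reads a library. Among the day 3 knockouts it was at 0.21 to 6.55 CPM (median 5.77), with 5 mice above every control and replicates 1 and 7 at 0.21 and 1.23 CPM. The log2 fold change was 2.73 ± 0.55 (SE, adjusted p = 0.0169). That call was lost with pancreas and stomach marker means as covariates (where 2 members, Rsad2 and Tapbp, were called). It was also lost with a replicate block and with the leukocyte covariate. The stricter filter of filterByExpr left the gene out of the test. At day 7 the groups overlapped, at 4.43 to 14.5 CPM (median 9.05) and 2.69 to 14.5 CPM (median 5.16), and the difference was -0.34 ± 0.37 (SE, adjusted p = 0.517). Of the 35 base stretches in the last 400 bases of its transcripts, 43.8% are also found in Apol9b, so reads of the 2 genes cannot all be told apart.

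Oas1a, which makes oligoadenylates that activate RNase L, was at 1.15 to 2.2 CPM (median 2) in the day 7 controls and 1.74 to 7.01 CPM (median 4.31) in the knockouts, a log2 fold change of 1.26 ± 0.32 (SE, adjusted p = 0.0044) on 6 to 40.0 reads a library. 5 of the 6 knockouts were above every control, and 58.2% of its terminal 35 base stretches are shared with Oas1g. Bst2 (tetherin), which holds budding virions at the cell surface, was at 35.6 to 52.5 CPM (median 49.8) and 47.8 to 86.6 CPM (median 62.7) with overlapping groups, a log2 fold change of 0.45 ± 0.14 (SE, adjusted p = 0.0129). At day 3 Oas1a was at 0.71 to 2.79 CPM (median 1.12) and 0.631 to 2.52 CPM (median 1.51) and Bst2 at 59.4 to 101 CPM (median 63.7) and 55.1 to 104 CPM (median 82.1), and neither passed the test (adjusted p = 0.835 and 0.72). Ifi44 also rose at day 7 (0.73 ± 0.26 SE, adjusted p = 0.0356), and that call was lost without any 1 of 7 libraries (tg.7d replicates 1 and 4 and wt.7d replicates 1, 2, 3, 4 and 6).

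Rtp4, a chaperone of membrane receptors, fell at day 7 (-0.79 ± 0.27 SE, adjusted p = 0.0242), a call lost without wt.7d replicate 5. Usp18, the protease that removes Isg15 from proteins and dampens the type I receptor, was at 3.69 to 6.74 CPM (median 4.68) and 2.38 to 7.88 CPM (median 3.94) at day 7 and did not pass the test (-0.19 ± 0.28 SE, adjusted p = 0.651). The remaining type I genes (Ifit2, Ifit3, Oas2, Oas3, Mx1 and Apol9b) did not pass the edgeR test on either day. DESeq2, and edgeR without tg.3d replicate 1, called Apol9b at day 3. At day 3, 21 of the 22 type I genes had a positive log2 fold change and 8 had an unadjusted p under 0.05, all in that direction, beside 9626 positive and 11134 negative among all genes tested. Of all 20760 genes tested, 2832 had an unadjusted p under 0.05 in either direction.

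The level of the type I genes as a group overlapped between genotypes on both days. Their mean on the log2 CPM scale (each gene weighted equally) was 2.58 to 3.15 in the day 3 controls, 2.90 to 3.78 in the day 3 knockouts, 3.37 to 4.09 in the day 7 controls and 2.94 to 4.21 in the day 7 knockouts. The highest and the lowest mouse of the last group stood apart across genes: replicate 1 had the highest CPM of its group for 15 of the 22 genes and replicate 2 the lowest for 16 of the 22. Isg15 was at 66.1 and 20.4 CPM in these 2 mice, Irf7 at 33.1 and 12.1 CPM and Oasl2 at 33.1 and 12.2 CPM. Among the day 3 controls, replicate 5 was lowest for 13 of the 22 type I genes and for 32 of all 52 members, and it is the library with the most stomach marker RNA, at 25959.6 CPM.

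**Figure D2:**
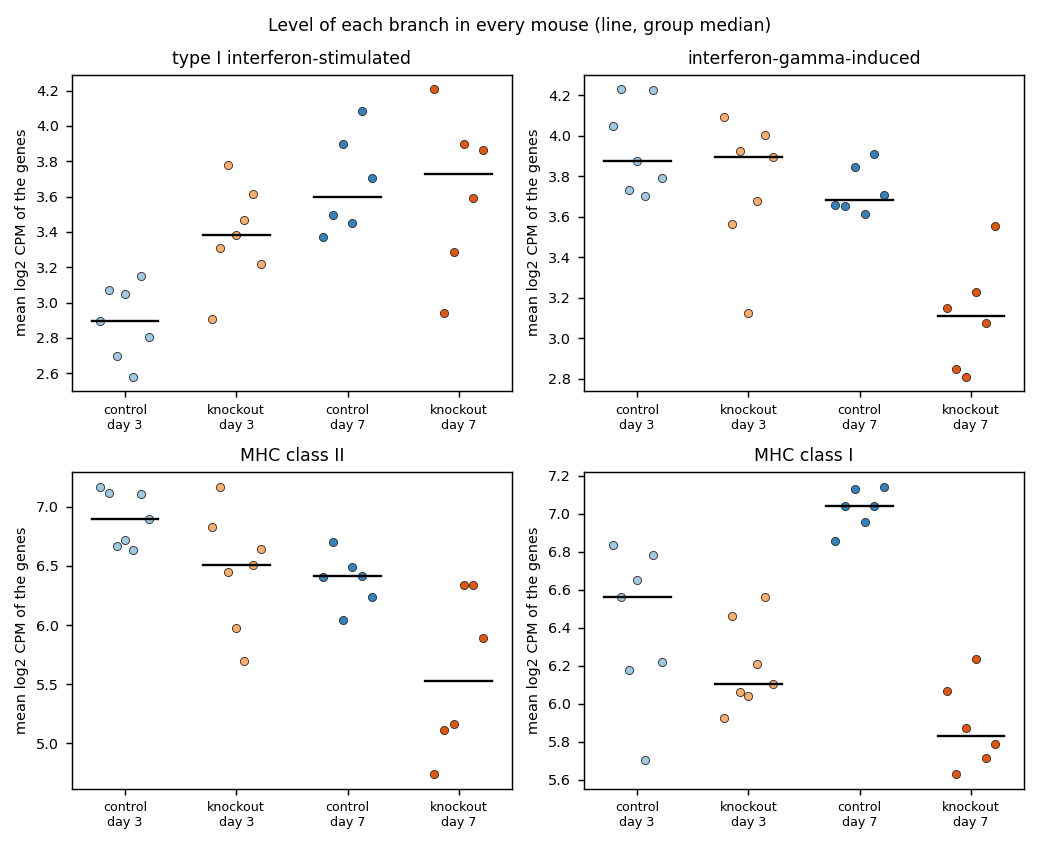
Mean log2 CPM of the genes of each branch (y axis) in every mouse, by genotype and day (x axis), with 1 point per mouse and a line at the group median. The class I and interferon-gamma panels show no overlap between the 6 controls and 6 knockouts at day 7, whereas the type I panel shows overlap.

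In the interferon-gamma branch the 2 transcription factors, Irf1 and Irf8, had the most negative log2 fold changes at day 7. Irf1, which is induced directly by interferon-gamma and in turn activates class I genes, was at 129 to 276 CPM (median 238) in the day 3 controls and 85.9 to 197 CPM (median 138) in the day 3 knockouts. The groups overlapped and the difference was -0.48 ± 0.18 (SE, adjusted p = 0.212). At day 7 the controls were at 185 to 272 CPM (median 225) and the 6 knockouts at 61.7, 42.2, 59.3, 61.9, 53.4 and 60.0 CPM, with no overlap. The change was -2.01 ± 0.13 (SE, adjusted p = 9.20e-10), a 4.02-fold lower level, and the effect was more negative at day 7 than at day 3 by -1.50 ± 0.23 (SE, adjusted p = 2.73e-05).

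Irf8, a factor of myeloid and B cells that is also induced by interferon-gamma, was at 156 to 194 CPM (median 175) and 78.6 to 160.2 CPM (median 132) at day 3 and did not pass the test in edgeR (-0.40 ± 0.12 SE, adjusted p = 0.113), although DESeq2 called it. At day 7 all controls (116 to 144 CPM) were above all knockouts (35.3 to 67 CPM), a log2 fold change of -1.24 ± 0.13 (SE, adjusted p = 6.01e-07). In all, 11 of the 52 genes were lower at day 7 with no overlap between the 6 controls and the 6 knockouts, beside 11.6% of all genes tested, and 0 at day 3, beside 0.491%. These 11 were Irf1, Irf8, Ddx58, H2-DMa and 7 class I genes.

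The guanylate-binding proteins and immunity-related GTPases, which attack vacuoles that hold pathogens, had 5 of 8 members lower at day 7 and 0 higher, beside 19.7% higher and 18.8% lower over all genes tested. Gbp2 was at 15 to 21.2 CPM (median 16.7) in controls and 8.72 to 15.1 CPM (median 12.1) in knockouts (-0.50 ± 0.15 SE, adjusted p = 0.0113), with the highest knockout just above the lowest control. Igtp was at 9.43 to 19.2 CPM (median 18.2) and 3.33 to 11.3 CPM (median 5.75) (-1.19 ± 0.27 SE, adjusted p = 0.0019), and here the 2 highest knockouts lay above the lowest of the controls. Irgm1 was at 3.04 to 6.94 CPM (median 5.15) and 1.14 to 3.42 CPM (median 2.31) (-1.08 ± 0.29 SE, adjusted p = 0.00658), with overlap as well. Gbp3 and Irgm2 also fell, with log2 fold changes of -0.64 and -0.53, and the call of Irgm2 was lost without wt.7d replicate 3. Igtp and Irgm2 have overlapping exons on the same strand, so their reads cannot all be told apart. At day 3 the groups overlapped for all 3: Gbp2 was at 27.5 to 60.8 CPM (median 36.6) in controls and 16.1 to 45.2 CPM (median 32.4) in knockouts (-0.26 ± 0.21 SE, adjusted p = 0.653). Igtp was at 8.06 to 24.1 CPM (median 17) and 7.27 to 16.4 CPM (median 14.4) (-0.26 ± 0.21 SE, adjusted p = 0.651), with tg.3d replicate 4 the lowest mouse. Irgm1 was at 4.97 to 11.5 CPM (median 6.97) and 2.75 to 9.44 CPM (median 4.87) (-0.32 ± 0.25 SE, adjusted p = 0.63). Gbp6, of whose terminal 35 base stretches 96% occur in related genes, Gbp7 and Iigp1 did not pass the test at day 7.

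The branch holds 2 chemokines. Cxcl10, which draws in T cells through CXCR3, was at 0.869 to 1.81 CPM (median 1.36) in controls and 0.853 to 5.85 CPM (median 2.92) in knockouts at day 7. 4 of the 6 knockouts were above every control and 2 were not, and the log2 fold change was 1.05 ± 0.39 (SE, adjusted p = 0.0423) on 4 to 32.5 reads a library (reads that overlap several genes are counted in fractions). That call was lost without any 1 of 9 of the 12 libraries (all but tg.7d replicates 3 and 4 and wt.7d replicate 6), and Cxcl10 shares exonic sequence with Art3 on the opposite strand. Cxcl9, a ligand of the same receptor, did not pass the test (-0.42 ± 0.30 SE, adjusted p = 0.304). Socs1, the feedback inhibitor of interferon receptor kinases, was at 0.77 to 2.74 CPM (median 2.1) and 0.569 to 2.17 CPM (median 1.15) and did not pass the test either (-0.67 ± 0.38 SE, adjusted p = 0.179). At day 3 the edgeR test called 0 of the 13 interferon-gamma genes, with 3 at an unadjusted p under 0.05, all lower, and DESeq2 called Irf8.

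The mean level of the interferon-gamma branch was 3.70 to 4.23 in the day 3 controls and 3.12 to 4.09 in the day 3 knockouts on the log2 CPM scale. At day 7 it was 3.61 to 3.91 in the controls and 2.81 to 3.55 in the knockouts. Markers of T cells and intraepithelial lymphocytes, cells that make interferon-gamma, moved in the same direction at day 7. Of the 13 listed, 11 were lower in the knockout and 0 higher, beside 18.8% lower and 19.7% higher over all genes tested. Their summed level was 146 to 247 CPM in the controls and 17.5 to 48.5 CPM in the knockouts. Gzma (-3.61 ± 0.27) and Ccl5 (-3.18 ± 0.24) had the smallest adjusted p of that list, and at day 3 none of the list was called by edgeR (1 with an unadjusted p under 0.05) or by DESeq2. From control day 3 to day 7 the directions differed. Of the 12 tested T cell markers 7 were higher and 1 lower, whereas of the 13 interferon-gamma genes 1 was higher and 3 were lower. The part of these cells in the level of the branch was not tested.

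**Figure D3:**
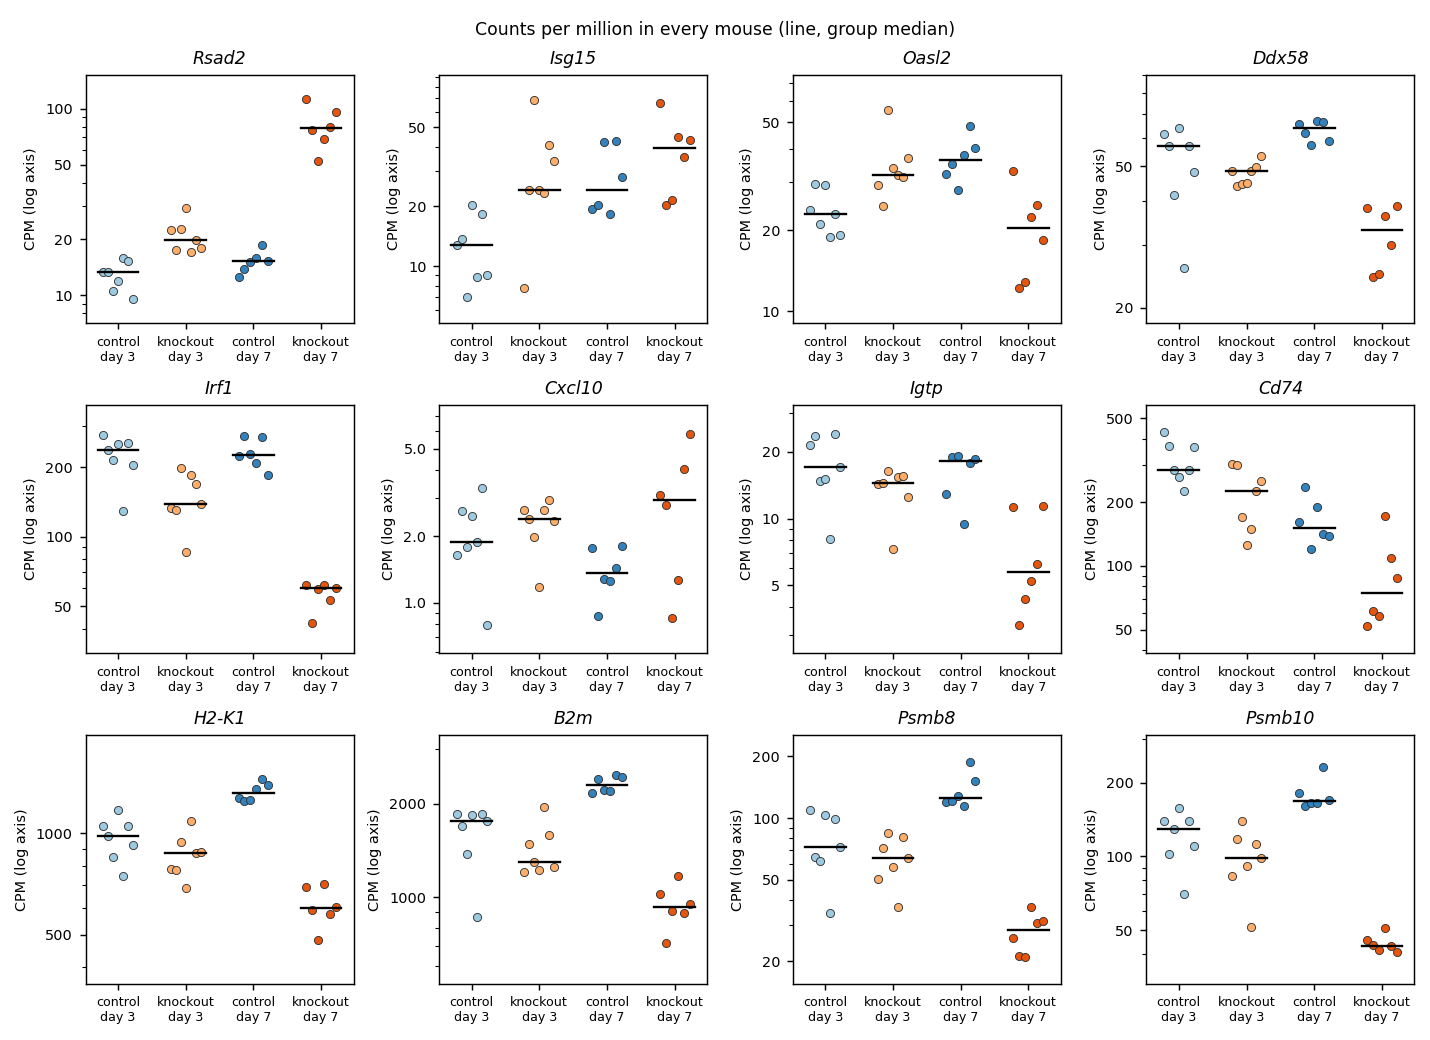
CPM (y axis, log scale) of 12 genes in every mouse, by genotype and day (x axis), with 1 point per mouse and a line at the group median. Rsad2 is higher in all knockouts than in all controls of the same day, and Irf1, H2-K1, B2m, Psmb8 and Psmb10 are lower in all knockouts than in all controls at day 7.

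In the class II branch, 4 of 7 genes were lower at day 7 and 0 were higher, beside 18.8% lower and 19.7% higher over all genes tested. H2-Ab1, a beta chain of class II, was at 157 to 267 CPM (median 211) in controls and 69.9 to 171 CPM (median 111) in knockouts, a log2 fold change of -0.81 ± 0.19 (SE, adjusted p = 0.00182). Cd74, the invariant chain, was at 121 to 236 CPM (median 151) and 52 to 173 CPM (median 74.4) (-0.84 ± 0.24 SE, adjusted p = 0.00867). For both genes the highest knockout lay within the range of the controls.

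H2-DMa, a chain of the molecule that exchanges class II peptides, was at 19.7 to 36.4 CPM (median 21.2) in controls and 3.5 to 16.6 CPM (median 10.7) in knockouts with no overlap, a log2 fold change of -1.15 ± 0.26 (SE, adjusted p = 0.0019). H2-DMb1 fell as well (-0.61 ± 0.21 SE, adjusted p = 0.0246), a call lost without tg.7d replicate 1 or 3, and 29% of its terminal 35 base stretches are shared with H2-DMb2. H2-Aa, the alpha chain, was at 243 to 379 CPM (median 336) and 106 to 409 CPM (median 190.0) and did not pass the test (-0.49 ± 0.26 SE, adjusted p = 0.143), and H2-Eb1 did not either (-0.63 ± 0.24 SE, adjusted p = 0.051). H2-Eb1 passed with the DESeq2 scaling, with filterByExpr, with no filter on low counts and without tg.7d replicate 4 or 5 or wt.7d replicate 3 or 5. Both genes passed with a replicate block, and H2-Aa also without tg.7d replicate 5. Ciita, the transactivator that class II genes require, was at 10.7 to 23.5 CPM (median 18.4) in controls and 4.82 to 33.9 CPM (median 11.2) in knockouts, and its difference was -0.17 ± 0.37 (SE, adjusted p = 0.757). The groups overlapped, and the knockouts included both the lowest and the highest mouse.

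At day 3 all 7 class II genes had a negative log2 fold change, between -0.49 and -0.24. The edgeR test called 0 of them, with 2 at an unadjusted p under 0.05, and DESeq2 called 0. Cd74 was at 227 to 429 CPM (median 285) in controls and 126 to 305 CPM (median 227) in knockouts at day 3 (-0.43 ± 0.20 SE, adjusted p = 0.354). H2-Ab1 was at 263 to 443 CPM (median 353) and 167 to 353 CPM (median 281) (-0.34 ± 0.18 SE, adjusted p = 0.44). H2-DMa was at 21.6 to 43.4 CPM (median 28.1) and 12.2 to 32.2 CPM (median 20.5) (-0.38 ± 0.21 SE, adjusted p = 0.48), and Ciita at 28.2 to 46.1 CPM (median 34.7) and 11.1 to 43.6 CPM (median 27.6) (-0.24 ± 0.21 SE, adjusted p = 0.677). The groups overlapped for all 4.

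The class II genes varied between the day 7 knockouts together with leukocyte markers. The mean class II level was 4.74, 5.11 and 5.16 log2 CPM in replicates 1, 2 and 3 and 6.34, 6.34 and 5.89 in replicates 4, 5 and 6. The mean of the 8 general leukocyte markers in the same mice was 2.60, 3.41 and 2.86, and 4.41, 4.69 and 3.95. The mean of the B cell and follicle markers was -0.12, 0.31 and -0.04, and 2.72, 2.95 and 1.92. Only the last 3 of these values lay above the day 7 control range of -0.07 to 0.61. The 3 mice with the most leukocyte marker RNA were thus the 3 with the most class II RNA, and their class II levels lay near or within the control range of 6.05 to 6.70.

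Between genotypes at day 7, 7 of the 9 tested B cell and follicle markers were higher in the knockout and 0 lower, beside 19.7% higher and 18.8% lower over all genes tested. Their sums overlapped, at 10.4 to 29.2 CPM in the controls and 18.0 to 97.4 CPM in the knockouts. Of the 16 macrophage and dendritic cell markers, 1 was higher and 3 lower. Of the 8 general leukocyte markers, none was called by edgeR (1 had an unadjusted p under 0.05) and 1, Cd52, by DESeq2. Plasma cell markers were lower for 6 of 7, with sums of 7441 to 15440.4 CPM in the controls and 2859 to 5274 CPM in the knockouts, and all 8 endothelial markers were higher (median log2 fold change 0.97). Summed macrophage and dendritic cell markers were at 278 to 439 CPM in the controls and 235 to 381 CPM in the knockouts. With the mean of the general leukocyte markers as a covariate, Cd74, H2-Ab1, H2-DMa and H2-DMb1 kept their calls at day 7 and H2-Aa and H2-Eb1 were called in addition.

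**Figure D4:**
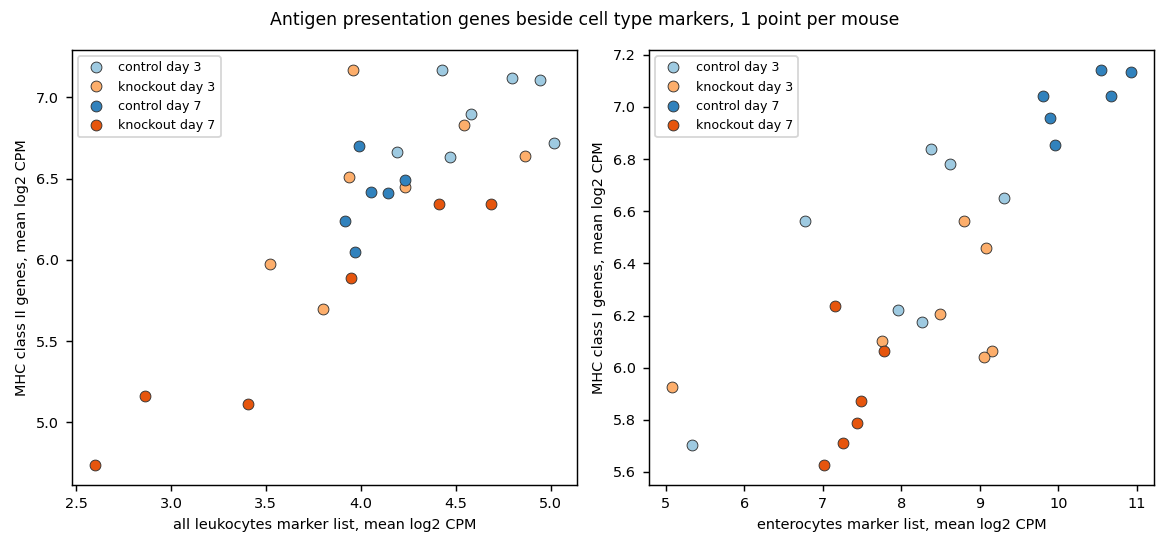
Left, mean log2 CPM of the 7 class II genes (y axis) against that of the 8 general leukocyte markers (x axis), right, mean log2 CPM of the 10 class I genes (y axis) against that of the 11 enterocyte markers (x axis), with 1 point per mouse coloured by genotype and day. The day 7 knockouts spread along the leukocyte axis from 2.60 to 4.69 on the left and lie below the day 7 controls on both axes on the right.

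In the class I branch, 8 of 10 genes were lower in the knockout at day 7 and 0 were higher, beside 18.8% lower and 19.7% higher over all genes tested. Of the 8, 7 had no overlap between groups, beside 11.6% of all genes tested that were lower without overlap. H2-K1, a classical heavy chain, was at 1247 to 1451 CPM (median 1313) in the controls and 483 to 707 CPM (median 599.5) in the knockouts, a log2 fold change of -1.10 ± 0.11 (SE, adjusted p = 1.50e-07). At day 3 it had been at 748 to 1176 CPM (median 984) and 689.6 to 1091 CPM (median 872), a difference of -0.06 ± 0.13 (SE, adjusted p = 0.896). H2-D1, the other heavy chain, fell less (-0.31 ± 0.11 SE, adjusted p = 0.0318), and that call was lost without tg.7d replicate 3 or 5 or wt.7d replicate 3. Of the terminal 35 base stretches, 23.3% of those of H2-K1 and 34.5% of those of H2-D1 are shared with other class I genes, so these values are uncertain.

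B2m, the light chain of all class I molecules, was at 867 to 1850.2 CPM (median 1767) in the day 3 controls and 1211 to 1959 CPM (median 1302) in the day 3 knockouts (-0.04 ± 0.18 SE, adjusted p = 0.948). At day 7 the controls were at 2169 to 2467 CPM (median 2306) and the knockouts at 713 to 1174 CPM (median 929). Every knockout was below every control, and the log2 fold change was -1.27 ± 0.11 (SE, adjusted p = 5.90e-08), a 2.41-fold lower level.

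The 3 immunoproteasome subunits, which replace the standard catalytic subunits and favour peptides that class I molecules can hold, had the 3 most negative log2 fold changes of the branch at day 7. Psmb8 was at 34.4 to 109 CPM (median 71.9) in controls and 37 to 84.3 CPM (median 63.8) in knockouts at day 3, with overlap and a difference of -0.17 ± 0.23 (SE, adjusted p = 0.81). At day 7 its 6 controls were at 119.7, 121, 128, 115, 188 and 152 CPM and its 6 knockouts at 26.1, 21.2, 21, 36.8, 30.9 and 31.7 CPM. The groups were far apart, with a change of -2.28 ± 0.16 (SE, adjusted p = 2.45e-09), or 4.85-fold.

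Psmb10 was at 160.0 to 232 CPM (median 168) in the day 7 controls and 40.9 to 51.1 CPM (median 43.3) in the day 7 knockouts, a log2 fold change of -1.99 ± 0.12 (SE, adjusted p = 1.93e-10). Its knockouts were the tightest group of that gene. Psmb9 fell by 1.68 on the log2 scale (adjusted p = 3.26e-06). Psmb9 overlaps exons of Tap1 on the opposite strand, and no strand setting is listed for the counting, so their reads cannot all be told apart.

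Of the peptide transport genes, Tap1 was at 41.9 to 58.6 CPM (median 53) and 16.5 to 29.3 CPM (median 26) at day 7 with no overlap (-1.09 ± 0.14 SE, adjusted p = 4.56e-06). Tapbp, the bridge between the transporter and the heavy chain, fell by 1.64 on the log2 scale (adjusted p = 6.48e-09), and at day 3 it was at -0.44 ± 0.12 (adjusted p = 0.0905), called by DESeq2 but not by edgeR. Tap2 did not pass the test at day 7 (-0.69 ± 0.36 SE, adjusted p = 0.149). Nlrc5, the transactivator of class I genes, was at 1.37 to 3.39 CPM (median 2) in controls and 1.98 to 3.89 CPM (median 2.83) in knockouts, with overlap and a difference of 0.44 ± 0.27 (SE, adjusted p = 0.217). Neither Nlrc5 nor Ciita passed the test at day 7, which does not exclude a change in either gene. Their part in the levels of class I and class II genes was not tested. At day 3 Tap1 was at 25.5 to 61.3 CPM (median 54.8) in controls and 28.3 to 78.6 CPM (median 44.7) in knockouts (0.04 ± 0.21 SE, adjusted p = 0.964) and Psmb10 at 70.2 to 158 CPM (median 129) and 51.4 to 139 CPM (median 98.5) (-0.18 ± 0.20 SE, adjusted p = 0.765), with overlap for both. At that time 0 class I genes were called by edgeR, with 2 at an unadjusted p under 0.05, and DESeq2 called Tapbp.

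The mean class I level at day 7 was 6.85 to 7.14 log2 CPM in the controls and 5.63 to 6.24 in the knockouts. Markers of mature enterocytes moved with it: 10 of the 11 listed were lower in the knockout at day 7 and 0 higher, beside 18.8% lower and 19.7% higher over all genes tested. Their summed level was 15828 to 30879 CPM in the controls and 3451 to 5053 CPM in the knockouts. The general epithelial list had 6 lower and 1 higher of 12. At day 3, 0 of the 11 enterocyte markers were called by edgeR (2 with an unadjusted p under 0.05) or by DESeq2, and their sums overlapped at 869 to 12980.1 and 707 to 13816 CPM. The part of enterocyte content in the class I level was not tested.

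A test of the difference between the 2 days asked whether the knockout effect itself changed. It called 14 of the 52 genes, 1 with a more positive effect at day 7 and 13 with a more negative one, beside 7.07% and 8.1% of the 23803 genes tested. Rsad2 was the more positive one. The more negative ones were 5 type I genes (Ddx58, Oasl2, Rtp4, Apol9a and Irf7), Irf1 and Irf8, and 6 class I genes (H2-K1, B2m, Tap1, Tapbp, Psmb8 and Psmb10). Psmb8 had the most negative difference of the class I genes (-2.09 ± 0.30 SE, adjusted p = 9.03e-06). In class II, 0 of 7 passed in edgeR and in DESeq2, with 1 at an unadjusted p under 0.05. The call of Irf7 (-1.04 ± 0.36 SE, adjusted p = 0.0468) was lost when any 1 of 17 of the 26 libraries was left out, and that of Rtp4 when any 1 of 4 was (tg.3d replicate 6, tg.7d replicates 2 and 3, wt.7d replicate 5).

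Control mice themselves differed between the 2 days, in libraries shared with the comparisons above. Of the 52 genes, 22 were higher and 10 lower in day 7 than in day 3 controls, beside 19.7% and 16.3% of the 20646 genes tested. In the type I branch 13 were higher and 1 lower, in class I 8 were higher and 0 lower, in class II 0 were higher and 6 lower, and in the interferon-gamma branch 1 was higher and 3 were lower. Of the 32 calls, 24 held without each single library. Stat2, Irf9, Ifi44, Irf1, H2-Ab1, H2-Eb1, Tap1 and Psmb9 lost theirs in at least 1 such fit. Without the libraries with stomach markers, Stat2, Irf9, Ifi44, Irf1, Tap1 and Psmb9 were not called. The TMM factor was 1.05 to 1.17 in day 3 and 0.838 to 0.966 in day 7 controls. Irf9, called higher, averaged 57.7 CPM in day 3 and 56.3 CPM in day 7 controls. Apol9a (3.92 ± 0.37 SE, adjusted p = 1.55e-05), Ifit1 (1.79 ± 0.27 SE, adjusted p = 0.000101) and Isg15 (1.53 ± 0.28 SE, adjusted p = 0.000411) rose, as did Psmb8 (1.20 ± 0.21 SE, adjusted p = 0.000351) and B2m (0.90 ± 0.15 SE, adjusted p = 0.000254), whereas Cd74 (-0.59 ± 0.16 SE, adjusted p = 0.00841) and Gbp2 (-0.87 ± 0.18 SE, adjusted p = 0.00102) fell.

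In the knockouts, again in shared libraries, 4 of the 52 were higher and 19 lower at day 7 than at day 3, beside 16.7% and 20.2% of the 20329 genes tested. The 4 that rose were type I genes (Rsad2, Oas1a, Oas3 and Ifih1), whereas 2 type I genes (Ddx58 and Oas2), 9 interferon-gamma genes and 4 genes of each presentation branch fell. Of the 23 calls, 18 held without each single library. Those of Oas3, Ddx58, Ifih1, Igtp and H2-Eb1 were lost in 7, 6, 4, 8 and 9 of the 13 such fits. Oas3, Ddx58 and Ifih1 also lost their calls with a replicate block and with pancreas and stomach marker means as covariates. Rsad2 rose by 2.14 ± 0.18 (SE, adjusted p = 2.38e-07) on the log2 scale and Irf1 fell by 1.20 on the log2 scale (adjusted p = 4.75e-05). Cell type markers also moved between days in the controls. All 11 enterocyte markers were higher at day 7, 7 of the 12 tested T cell markers were higher and 1 lower, and 11 of the 16 macrophage and dendritic cell markers, all 8 endothelial markers and all 11 muscle and fibroblast markers were lower. Over all genes tested between control days, 19.7% were higher and 16.3% lower. No label names a batch, and whether libraries of the 2 days were made together is not given in the sources used here, so such a difference and the day cannot be told apart. With the leukocyte mean as a covariate, 14 of the 52 were called between control days, all higher.

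The rest of the pathway was taken from 5 lists of 99 genes. Of the 13 listed ligands and cytokines, 10 were too low to be tested at day 7, Ifng and Ifnb1 among them. Ifnb1 had 0 reads in every library. Ifng had 0 reads in all 13 knockout libraries and at most 2 reads in a control library, and a count of 0 allows up to 3 reads in a library, so no difference was detectable at this depth. Il18, a cytokine of epithelial cells that promotes interferon-gamma release, was at 180.4 to 275 CPM (median 224) in controls and 32.6 to 57.4 CPM (median 46.2) in knockouts at day 7, a log2 fold change of -2.27 ± 0.15 (SE, adjusted p = 1.14e-09). Il15, which sustains intraepithelial lymphocytes, was at 20.2 to 41.4 CPM (median 26.2) and 12.1 to 24.2 CPM (median 14) (-0.83 ± 0.20 SE, adjusted p = 0.00319).

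The interferon receptor chains changed in both directions. Ifngr1 was at 107 to 148 CPM (median 129.7) in the day 7 controls and 268 to 302 CPM (median 290.3) in the knockouts, a log2 fold change of 1.20 ± 0.09 (SE, adjusted p = 3.22e-09) with no overlap. At day 3 it was at 152 to 198 CPM (median 171) and 176 to 259 CPM (median 203) (0.36 ± 0.12 SE, adjusted p = 0.159). Its partner chain Ifngr2 fell (-0.60 ± 0.12 SE, adjusted p = 0.000494). Ifnar2 (0.64 ± 0.12 SE, adjusted p = 0.000189) and Ifnlr1, the epithelial receptor of type III interferon (0.58 ± 0.16 SE, adjusted p = 0.00679), rose, and Ifnar1 did not pass the test (-0.20 ± 0.15 SE, adjusted p = 0.299). Of the receptor kinases, Jak1 rose (0.51 ± 0.09 SE, adjusted p = 9.87e-05) and Jak2 fell (-0.60 ± 0.15 SE, adjusted p = 0.00395). Over the list of 9 receptors and kinases, 4 rose and 3 fell, beside 19.7% higher and 18.8% lower over all genes.

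Of 18 tested nucleic acid sensing genes, 1 rose and 7 fell at day 7, against the same shares over all genes. The kinase Tbk1, which activates interferon regulatory factors, fell by 0.89 on the log2 scale (adjusted p = 3.68e-07), and Zbp1, a sensor of Z-form nucleic acid, by 1.92 (adjusted p = 1.67e-05). Cgas, the sensor of cytosolic DNA, rose (0.69 ± 0.17 SE, adjusted p = 0.00318). Of 29 tested genes in a list of further interferon targets, which also holds general chaperones (Pdia3, Calr and Canx), 3 rose and 11 fell. The proteasome activator subunit Psme1 (-1.43 ± 0.11 SE, adjusted p = 5.72e-09) and Isg20, an RNA exonuclease (1.53 ± 0.13 SE, adjusted p = 4.14e-08), had the smallest adjusted p in each direction. Of 27 further antigen presentation genes, 2 rose and 6 fell, beside 19.7% higher and 18.8% lower over all genes. The smallest adjusted p values among those that fell were those of the non-classical class I genes H2-T3 (-1.80 ± 0.12 SE, adjusted p = 8.55e-10) and H2-Q1 (-1.78 ± 0.12 SE, adjusted p = 1.14e-09). These belong to a multigene family with near-identical members, so their values are uncertain. Lgmn, a lysosomal protease (1.28 ± 0.16 SE, adjusted p = 3.50e-06), and the class II chain H2-Eb2 (adjusted p = 0.0475) were the 2 that rose. At day 3, 0 of the 87 tested genes of these 5 lists were called by edgeR, and DESeq2 called 1, Ifngr1. An unadjusted p under 0.05 was found for 12 of the 87, a share near that of all genes (2832 of 20760).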

How the data were processed

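RNA of 26 homogenized proximal small intestines was sequenced with a 3′ end mRNA library kit. The deposited table holds an estimated count per gene and library: the authors trimmed reads with Cutadapt 2.10, aligned them with Subread to GRCm38 plus spike-in sequences, and counted exonic reads with featureCounts 2.0.1, splitting reads that overlap several genes into fractions, so 95% of values are whole. No strand option is listed for the counting. The study lists RNA quality criteria for excluding samples. Groups were taken from the sample titles. The targeted gene is not reported here.

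Here the 92 spike-in rows were removed and counts were rounded to whole numbers. For each comparison, genes at 0 in more than 50% of the samples of either group were left out, libraries were scaled by TMM, and groups were compared with edgeR 4.0.16 (quasi-likelihood test, R 4.3.3, limma 3.58.1), with Benjamini-Hochberg adjustment over all genes tested and a threshold of 0.05. The script was tested on simulated data with known fold changes in 200 genes per comparison. It recovered 59.5% of them at day 3, 64% at day 7 and 53.5% for the difference between days. False calls numbered 6, 9 and 8. A gene that did not pass may therefore still have changed. Log2 levels by mouse used a prior count of 2. The p-values measure the spread between mice. Alternatives were DESeq2 1.42.0, other scalings and filters, all libraries in 1 fit, a 2-fold minimum, the replicate block, tissue and leukocyte marker means as covariates, and each library left out. Loci came from GENCODE M21 and promoters from RefSeq, both on GRCm38. Per-group ranges are given for 30 members: 25 representatives of the branches' roles, and the 2 members with the smallest adjusted p per branch, day and direction. Of 5 further pathway lists, at most 2 genes per list and direction and the interferon ligands and receptors were named. Members and lists were chosen with earlier results of these data known.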

Additional observations from a re-analysis of the deposited data

Results flagged for a closer look

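The knockout effect differed between day 3 and day 7, by the edgeR test of that difference, for 14 of the 52 members, beside 7.07% of all genes more positive and 8.1% more negative. The 12 of these among the 30 members given per group follow, and some of the 30 were picked for small adjusted p values. Values are the day 7 effect minus the day 3 effect on the log2 scale. In the type I branch the difference was 1.65 for Rsad2, -1.46 for Oasl2, -1.04 for Irf7, -0.94 for Ddx58 and -3.03 for Apol9a. For the factors Irf1 and Irf8 it was -1.50 and -0.82. In class I it was -1.02 for H2-K1, -1.20 for B2m, -1.10 for Tap1, -2.09 for Psmb8 and -1.79 for Psmb10. The control mice of the 2 days enter each of these differences, and the levels of Apol9a and Psmb8 in the controls alone rose by 3.92 and 1.20 from day 3 to day 7.

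Single mice stood far from their group (by Dixon's criterion) in 8 of the 120 gene and group pairs examined, where chance gives about 1 in 20, or 6. Among the day 7 controls, Irf7 was at 42.5 CPM in replicate 5, Psmb10 at 232 CPM in the same mouse, Bst2 at 35.6 CPM in replicate 3 and H2-DMa at 36.4 CPM in replicate 2, 1 of the libraries with stomach markers. Among the day 3 knockouts, Oasl2 was at 55.7 CPM in replicate 3, Igtp at 7.27 CPM in replicate 4 and Tap1 at 78.6 CPM in replicate 5. Usp18 was at 7.88 CPM in day 7 knockout replicate 1.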

How the results depend on the processing

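At day 3 the count of 3 called members became 8 with DESeq2 (6 higher, 2 lower), 6 with all libraries in 1 fit, 5 without the 4 libraries with stomach markers, 1 with a 2-fold minimum, 1 with a replicate block (Ifit1 gained, the 3 lost) and 0 with the leukocyte covariate. It ranged from 2 to 6 with each library left out, with 6 without tg.3d replicate 1. At day 7 the count of 27 became 15 with a 2-fold minimum and ranged from 24 to 28 with each library left out, and 21 of the 27 were called in every such fit. Between control days the count of 32 became 9 with a 2-fold minimum and 14 with the leukocyte covariate, and between knockout days 23 became 11 with a 2-fold minimum. The ranges with each library left out were 26 to 30 and 19 to 25. The 14 members whose effect differed between days stayed at 12 to 15 under all alternatives and with each library left out. The number called over all genes moved as well. Under the alternative settings it was 91 to 810 at day 3 and 3245 to 7896 at day 7. It was 2180 to 4186 for the difference between days, 2038 to 7766 between control days and 3296 to 7923 between knockout days. With each library left out it was 171 to 779, 7159 to 7867, 3185 to 4119, 6431 to 7641 and 6381 to 7839 in that order. No called log2 fold change of the members given per group reversed under any alternative. The deviations of same-numbered control and knockout mice had correlations from -0.26 to 0.29, with 4 of 13 pairs nearest to their own number. No clear pairing by number was seen, but so few pairs cannot exclude one. The replicate block gave 28 members at day 7, 14 for the difference between days, 27 between control days and 18 between knockout days. The share of members with an ISRE was 57.5% for the core and 30% for the longer ISRE consensus, which fewer sequences can match. Genes with a few reads per library (Apol9a, Oas1a, Cxcl10, Socs1, Nlrc5) are limited by depth. Exons of further members also overlap other genes. On the same strand these members include Irf9 (with Rnf31) and Tapbp (with Zbtb22). On the opposite strand they include Irf7 (with Phrf1) and H2-DMa (with Brd2). Reads of such genes cannot all be told apart.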
